A study of Mus musculus with 6 samples.

Results

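The 32 genes described here carry glucose into the cell, break it down to pyruvate, exchange pyruvate for lactate, move lactate across the membrane and govern the entry of pyruvate into mitochondria. They were taken by gene symbol from a written list, which also holds the hypoxia factor Hif1a. All 32 were found among the 52550 genes measured. All 32 also passed the filter for low values, which asked for 3 or more libraries out of 6 with a value of 1 or higher and left 20136 genes to be tested. The symbol Aldoa stood on 2 overlapping rows of chromosome 7, and the row with more reads was used. The other row held between 0 and 18.9 normalised reads per library and was not called.

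Messenger RNA was sequenced from cells that the labels call primary hematopoietic stem cells of mouse bone marrow, in 3 wild-type and 3 knockout libraries. Both groups carried floxed Ppp2ca alleles. The wild-type group (WT) was Ppp2caf/f with no Cre named, and the knockout group (KO) was VAV1crePpp2caf/f, in which the recombinase is driven by Vav1, a gene active throughout blood cells. The groups therefore differ in the presence of Cre as well as in the deletion. Ppp2ca encodes the alpha form of the catalytic subunit of protein phosphatase 2A, and the study asked which genes it regulates. Age, sex, surface markers of the sort and the number of mice behind a library could not be taken from the labels. If the libraries of a group did not come from separate mice, p-values measure only the spread between these libraries.

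Glycolysis begins with glucose carriers and hexokinases, which trap glucose as its phosphate, and is committed by phosphofructokinase. The lower steps, from aldolase to pyruvate kinase, yield ATP and pyruvate, and lactate dehydrogenase turns pyruvate into lactate, which leaves the cell through monocarboxylate carriers. Pyruvate dehydrogenase kinases instead hold back the entry of pyruvate into the citric acid cycle, and in blood stem cells glycolysis supported by Hif1a and by these kinases is known to go with quiescence.

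Values are normalised reads, gene-level read counts divided by 1 size factor per library. The libraries held 37951985 to 58692037 reads. Ppp2ca itself had 32909, 33451 and 33169 normalised reads in WT replicates 1 to 3 and 23728, 22419 and 24046 in KO replicates 1 to 3. KO was thus at 70.5% of WT, with a log2 fold change of -0.50 (limma adjusted p = 0.00268). These values cover the whole gene and not only the floxed part, so they do not measure the deletion. The stem cell label was checked against marker genes. The 8 stem cell markers were detected in every library, and their summed level ranged from 77739 to 86877 in WT and from 28486 to 44388 in KO, with 7 of 8 lower in KO. By the test used below, 13% of all genes tested were lower in KO and 10.3% higher. The 6 markers of granulocyte-monocyte progenitors that were found summed to between 1246800 and 1476500 in WT and between 1851800 and 2068700 in KO, with 6 of 6 higher. Among them Mpo averaged 955000 normalised reads in WT and 1237100 in KO. Erythroid markers summed to 41736 to 51080 in WT and 9382 to 10258 in KO (7 of 8 lower), and megakaryocyte and platelet markers to 20410 to 24587 in WT and 4776 to 6646 in KO (6 of 6 lower). Mature neutrophil markers summed to 83513 to 141720 in WT and 120680 to 266520 in KO, with 3 of 9 higher and 1 lower. Macrophage markers summed to 6782 to 11729 in WT and 4291 to 4526 in KO (3 of 6 lower). B lineage markers summed to 13344 to 32159 in WT and 2370.5 to 3712 in KO, with Igkc, an immunoglobulin light chain gene, lower (log2 fold change -5.11) and Pax5 and Ebf1 at 0 in all libraries. T and NK markers summed to 33632 to 35053 in WT and 41683 to 43879 in KO, with Nkg7 higher (log2 fold change 0.32), Trbc1 and Klrb1c lower (-3.64 and -1.67) and Cd8a at 0 in all libraries. That sum was almost all Nkg7, which averaged 34159 in WT and 42658 in KO. Other sums also lay mostly in a few abundant genes. Cd34 and Kit averaged 42732 and 25717 in WT and 17819 and 16302 in KO. Car2 averaged 39179 in WT and 7769 in KO, and Vcam1 6379 and 3791. A sum is therefore not the level of a cell type. The sums of every list but the neutrophil list did not overlap between the groups, and their part in the results below was not tested. In bulk RNA, fewer cells of a type and less RNA per cell cannot be told apart.

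Most of the enzymes from glucose phosphate to lactate had more mRNA in KO, while the glucose carrier Slc2a3, the subunits Pfkm and Ldhb and the kinase Pdk2 had less. Of the 32 genes 17 were higher in KO and 4 were lower at a limma adjusted p under 0.05, and 11 did not pass. Among all genes tested 23.3% passed, 10.3% as higher and 13% as lower. The median log2 fold change was 0.50 over the 32 genes and -0.02 over all genes tested. In 19 of the 32 genes the 3 KO values all lay above the 3 WT values, as they did in 19.1% of all genes, and in 7 they all lay below, as in 21.7% of all genes. Over both directions 40.9% of all genes had groups that did not overlap. Most of the 32 are abundant, and abundant genes were more often higher in KO. Of the 28 with a mean of at least 1000 normalised reads 17 were higher and 3 lower with a median of 0.60, while of the 7510 genes at that level 21.3% were higher and 12.1% lower with a median of 0.09. The 32 genes took 0.898%, 0.945% and 0.979% of all reads in the WT libraries and 1.42%, 1.31% and 1.37% in the KO libraries. The KO shares all lay above the WT shares. When libraries were scaled to equal total reads, the median log2 fold change moved to 0.36 over the 32 genes and to -0.16 over all genes, and 15 of the 32 were higher and 5 lower. Of all genes called, 44.1% were higher as deposited and 27.6% with that scaling.

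**Figure D1:**
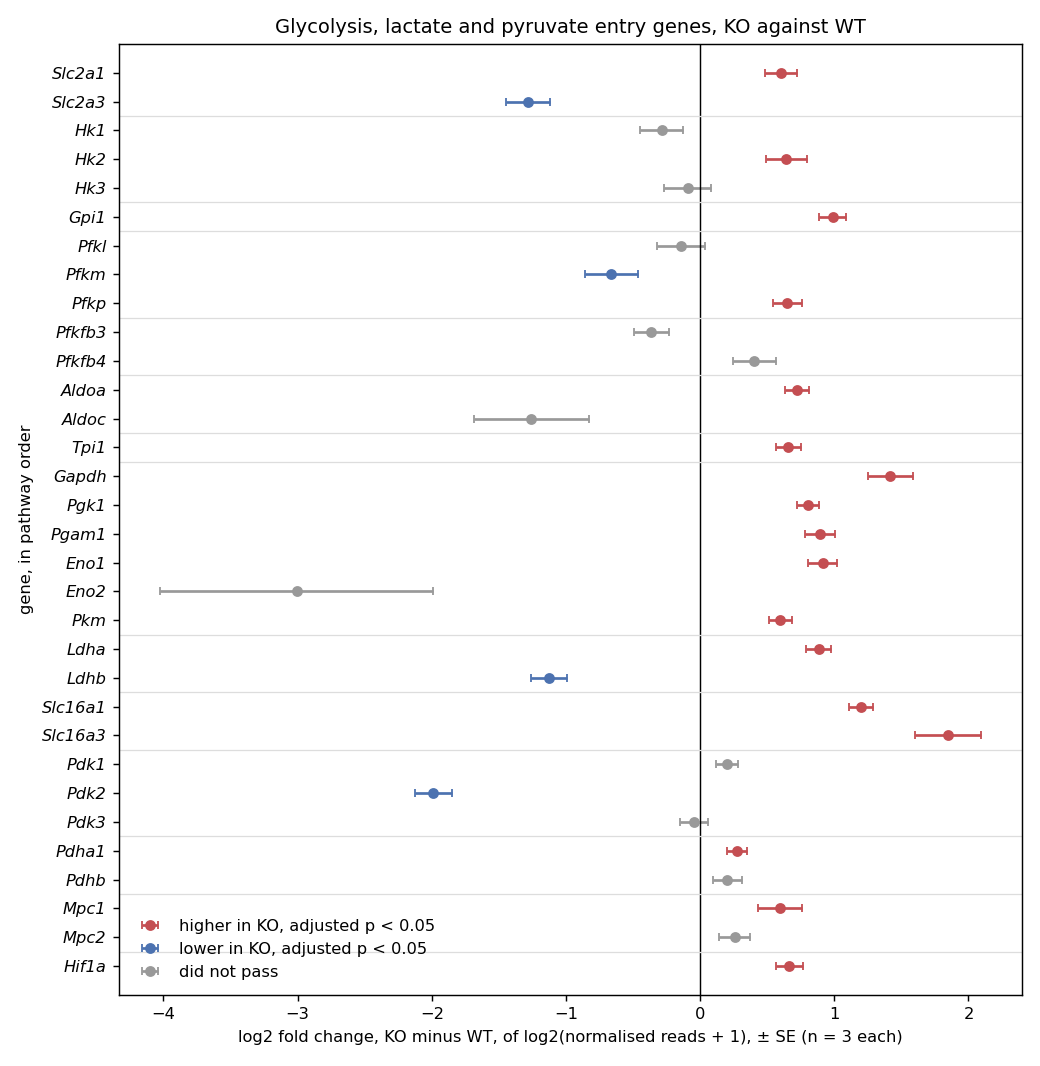
Log2 fold change of each of the 32 genes, KO minus WT, on the log2(normalised reads + 1) scale, with the standard error from limma (3 libraries in each group) and genes in pathway order from top to bottom. The 17 genes in red passed as higher, with Slc16a3 farthest to the right at 1.85, and the 4 in blue (Slc2a3, Pfkm, Ldhb and Pdk2) passed as lower.

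Levels of different genes are compared per kilobase of the principal transcript, a length chosen after values had been seen. On that scale Ldha was the most abundant of the 32 in both groups, at 31238 reads per kilobase in WT and 57424 in KO. Pkm and Eno1 followed in WT at 29000 and 24664, and in KO Eno1 at 46514 stood before Pkm at 43952. Gapdh went from rank 6 to rank 5, and Slc16a1 from rank 19 to rank 12. Pdk2 went from rank 25 to rank 30, and Ldhb from rank 16 to rank 22. The least abundant was Eno2, at 6.27 in WT and 1.23 in KO. With the length of all annotated exons Ldha was also first and Eno2 last in both groups, and Pgam1 stood at rank 3 in WT and 2 in KO. Pkm then stood before Eno1 in both groups, at ranks 2 and 5 in WT and 3 and 4 in KO, so their order in KO depended on the length. By all exons Gapdh went from rank 9 to rank 6, Slc16a1 from 13 to 10, Pdk2 from 25 to 30 and Ldhb from 15 to 19. The directions of these moves were the same with both lengths, while the ranks of Gapdh, Slc16a1 and Ldhb depended on the length.

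**Figure D2:**
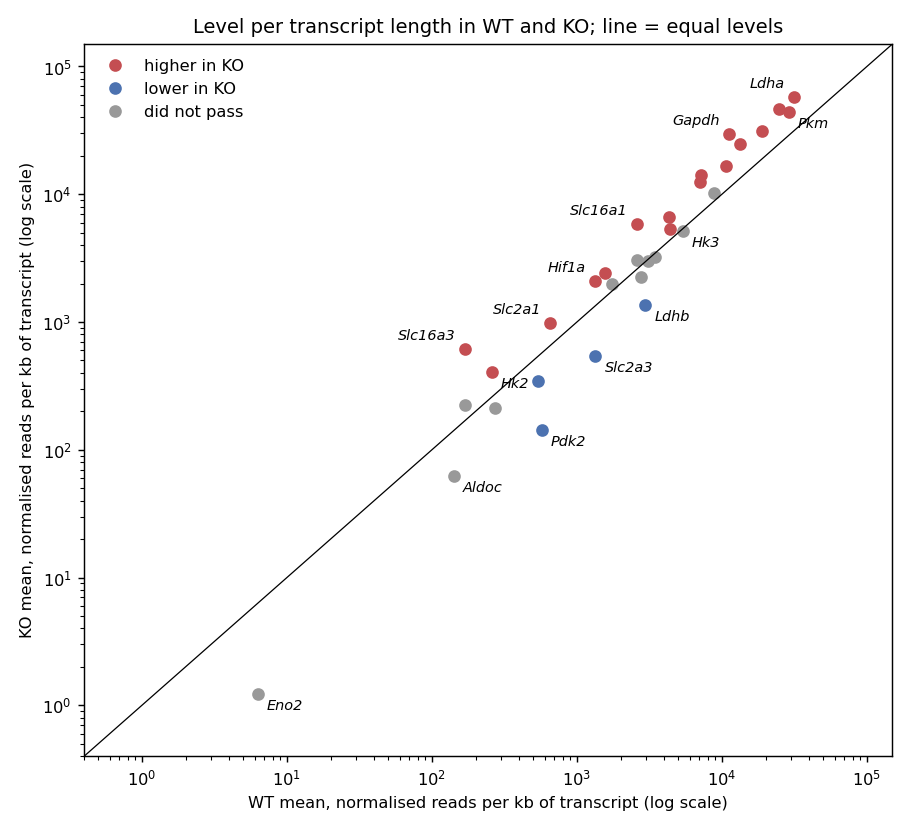
Mean level of each of the 32 genes in KO (vertical axis) against WT (horizontal axis), in normalised reads per kilobase of transcript on log axes, with 1 point per gene. Ldha lies at the top right at 31238 in WT and 57424 in KO, Gapdh, Pkm and Slc16a1 lie above the line of equal levels, and Ldhb, Slc2a3, Pdk2, Aldoc and Eno2 lie below it.

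The plasma membrane glucose carriers moved in opposite directions. Slc2a1 (chr4:119108711-119137983 in GRCm38) encodes GLUT1, the carrier for basal glucose uptake in many cells, and had 2414, 2140.1 and 1839 normalised reads in WT replicates 1 to 3 and 3350.2, 3163 and 3154 in KO replicates 1 to 3. All KO values lay above all WT values, and the log2 fold change was 0.60 ± 0.12 (SE, adjusted p = 0.0102). Slc2a3 (chr6:122727809-122801640), which encodes the high-affinity carrier GLUT3, had 6786, 4352 and 4807 normalised reads in WT replicates 1 to 3 and 2146, 2039 and 2262 in KO replicates 1 to 3. Each KO library held less than the lowest WT library, and WT replicate 1 stood highest. The log2 fold change of Slc2a3 was -1.28 ± 0.16 (adjusted p = 0.00215). Per kilobase, Slc2a1 made up 32.7% of the summed level of both carriers in WT and 64.6% in KO, or 45.3% and 75.6% when the length of all annotated exons was used. The sum itself was 76.7% of WT in KO with no overlap by the principal transcript, and 90.6% with overlapping groups by all exons, so whether the groups overlapped depended on the length used.

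Hexokinases phosphorylate glucose on entry, and Hk2 was the only member of the 3 listed that passed. Hk2, the inducible form, had 1545, 1448 and 1297 normalised reads in the WT libraries and 1888, 2687 and 2182 in the KO libraries. The lowest KO library stood above the highest WT library, with a log2 fold change of 0.64 ± 0.15 (adjusted p = 0.0192). The Hk2 call was lost without WT replicate 2 (adjusted p = 0.0515), WT replicate 3 (0.0598) or KO replicate 3 (0.0623), and when limma ran with no intensity trend (0.0699). Hk1, the widely expressed form, had 11066, 8937 and 11742 normalised reads in WT and 7013, 10408 and 8771 in KO, and Hk3, a form found in myeloid cells, had 16427, 18287 and 17190 normalised reads in WT replicates 1 to 3 and 12236, 20834 and 16717 in KO replicates 1 to 3. Both overlapped between groups, with log2 fold changes of -0.29 (adjusted p = 0.252) and -0.09 (adjusted p = 0.755). Hk3 held the largest share of hexokinase mRNA per kilobase in both groups, 64.1% in WT and 65.8% in KO, and Hk2 went from 3.10% to 5.22%. The summed hexokinase level was 93.4% of WT in KO, and the groups overlapped. Within KO, Hk1 and Hk3 were lowest in replicate 1 and highest in replicate 2. In the same libraries neutrophil markers summed to 266520 in replicate 1 and 120680 in replicate 2, and stem cell markers to 28486 and 44388, and the relation was not tested.

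Gpi1, which turns the phosphate of glucose into that of fructose, stood in KO at 198% of WT. It had 18283, 22905 and 20899 normalised reads in the WT libraries and 39485, 44004 and 39372 in the KO libraries, with no overlap. The log2 fold change was 0.99 ± 0.10 (adjusted p = 0.00110).

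The 3 phosphofructokinase genes each behaved differently. Pfkp, the platelet-type subunit, rose from 5755, 6175 and 7404 normalised reads in the WT libraries to 9772, 10720 and 9712 in the KO libraries, with a log2 fold change of 0.65 ± 0.11 (adjusted p = 0.00577). Pfkm, the muscle-type subunit, fell from 1477, 1395 and 1785 normalised reads in the WT libraries to 729.9, 1146 and 1110.5 in the KO libraries, with a log2 fold change of -0.66 ± 0.20 (adjusted p = 0.0467). That call was close to the threshold and was lost without WT replicate 1, 2 or 3 (adjusted p = 0.0954, 0.0730 and 0.131) and without KO replicate 1 or 3 (0.0759 and 0.0744). It was also lost with no intensity trend (0.118), under quantile normalization (0.0528), with a pseudocount of 0.1 (0.0557) and without the filter (0.0621). Pfkl, the liver-type subunit and the most abundant of the 3 per kilobase in both groups, had 13388, 11964 and 13247 normalised reads in WT and 8862, 15364 and 11567 in KO, overlapped between groups and was not called (log2 fold change -0.14, adjusted p = 0.626). Like Hk1 and Hk3, Pfkl was lowest in KO replicate 1 and highest in KO replicate 2. Pfkp went from 28.05% to 40.7% of phosphofructokinase mRNA per kilobase, and the summed level of the step was 108% of WT, or 98.7% by all exons, with overlapping groups.

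Pfkfb3 and Pfkfb4 encode bifunctional enzymes that set fructose 2,6-bisphosphate, the activator of phosphofructokinase. Neither passed the test. Pfkfb3 had 1140.4, 1372 and 1291 normalised reads in WT replicates 1 to 3 and 974, 1074 and 907 in KO replicates 1 to 3, all KO values below WT (log2 fold change -0.36, adjusted p = 0.0817). Pfkfb4 had 526, 625 and 625 normalised reads in the WT libraries and 869, 673 and 817 in the KO libraries, all KO values above WT (log2 fold change 0.40, adjusted p = 0.108). Pfkfb3 passed with library quality weights (adjusted p = 0.0121) and with total reads scaling (0.0235), and Pfkfb4 with quality weights (0.0318) and quantile normalization (0.0403). Their summed level per kilobase was 98.8% of WT.

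From aldolase to pyruvate kinase the main enzyme of each step was higher in KO, and none of these main enzymes had overlapping groups. Aldoa, the aldolase that splits fructose bisphosphate in most tissues, had 26459, 29471 and 30130 normalised reads in WT and 49624, 43462 and 49093 in KO. KO stood at 165% of WT, with a log2 fold change of 0.72 ± 0.09 (adjusted p = 0.00192). Tpi1, which interconverts the triose phosphates made by aldolase, had 15413, 17080 and 18710 normalised reads in WT replicates 1 to 3 and 25776, 28476 and 26329 in KO replicates 1 to 3, a log2 fold change of 0.66 ± 0.09 (adjusted p = 0.00304). The brain-type aldolase Aldoc was scarce, with 573, 323 and 292 normalised reads in the WT libraries and 94.3, 278 and 148 in the KO libraries. All KO values of Aldoc lay below WT, but it did not pass (log2 fold change -1.26 ± 0.43, adjusted p = 0.0720). It passed without KO replicate 2 (adjusted p = 0.0203), with quality weights (0.0175) and with DESeq2 (0.0196).

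Gapdh (chr6:125161715-125166467), which oxidises glyceraldehyde 3-phosphate and is often used as a reference gene, rose most among the enzymes after aldolase. It had 12788, 16757 and 17769 normalised reads in WT and 45649, 33464 and 47488 in KO. KO stood at 268% of WT, with KO replicate 2 the lowest of its group and still above every WT library, and the log2 fold change was 1.42 ± 0.17 (adjusted p = 0.00175). Pgk1, the kinase that makes the first ATP of the pathway, had 11990, 13094 and 13716 normalised reads in WT replicates 1 to 3 and 22833, 21688 and 23162 in KO replicates 1 to 3, with a log2 fold change of 0.80 ± 0.08 (adjusted p = 0.00100). Pgam1, the phosphoglycerate mutase, had 19957, 26780 and 24622 normalised reads in the WT libraries and 42768, 44053 and 44692 in the KO libraries, a log2 fold change of 0.89 (adjusted p = 0.00207). In each of these 3 genes the groups stood well apart.

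Eno1, the enolase of most tissues, had 45718, 50739 and 53523 normalised reads in WT and 104440, 83114 and 95298 in KO, a log2 fold change of 0.91 ± 0.11 (adjusted p = 0.00165). Pkm, the pyruvate kinase gene whose M1 and M2 isoforms are not separated in gene-level values, had 67832, 71235 and 72514 normalised reads in WT replicates 1 to 3 and 113950, 96755 and 109970 in KO replicates 1 to 3. Its log2 fold change was 0.60 ± 0.09 (adjusted p = 0.00337), and the call was lost under quantile normalization (log2 fold change 0.24, adjusted p = 0.107). The neuronal enolase Eno2 was scarce, with 22.2, 18.1 and 12.3 normalised reads in the WT libraries and 0, 0 and 10.4 in the KO libraries. A count of 3 reads equals 2.59 to 3.51 normalised reads in these libraries. Eno2 did not pass (adjusted p = 0.0702), though it did without KO replicate 3, the only KO library with reads (0.0146). Summed over Gapdh, Pgk1, Pgam1, Eno1, Eno2 and Pkm, the level per kilobase was 85264 ± 6974 in WT and 157250 ± 14134 in KO (SD, n = 3), or 184% of WT. Within that sum Gapdh went from 13.03% to 18.9% and Pkm from 34.0% to 27.95%.

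Near-identical copies can take reads from some of these genes, and the sources used here do not state how reads that fit several places were counted. Gapdh-ps15, a processed pseudogene on chromosome Y, was listed with a mean of 1945 normalised reads in WT and 3986 in KO, 12.4% and 9.69% of Gapdh. Of other genes on chromosome Y, Uty, Ddx3y and Eif2s3y had no read in any library, and Kdm5d had a single read in KO replicate 2. Pgam1-ps2 held 4.73% of the Pgam1 level in WT and 4.56% in KO, and Eno1b 4.28% and 4.41% of Eno1. The values of Gapdh, Pgam1 and Eno1 are therefore uncertain.

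**Figure D3:**
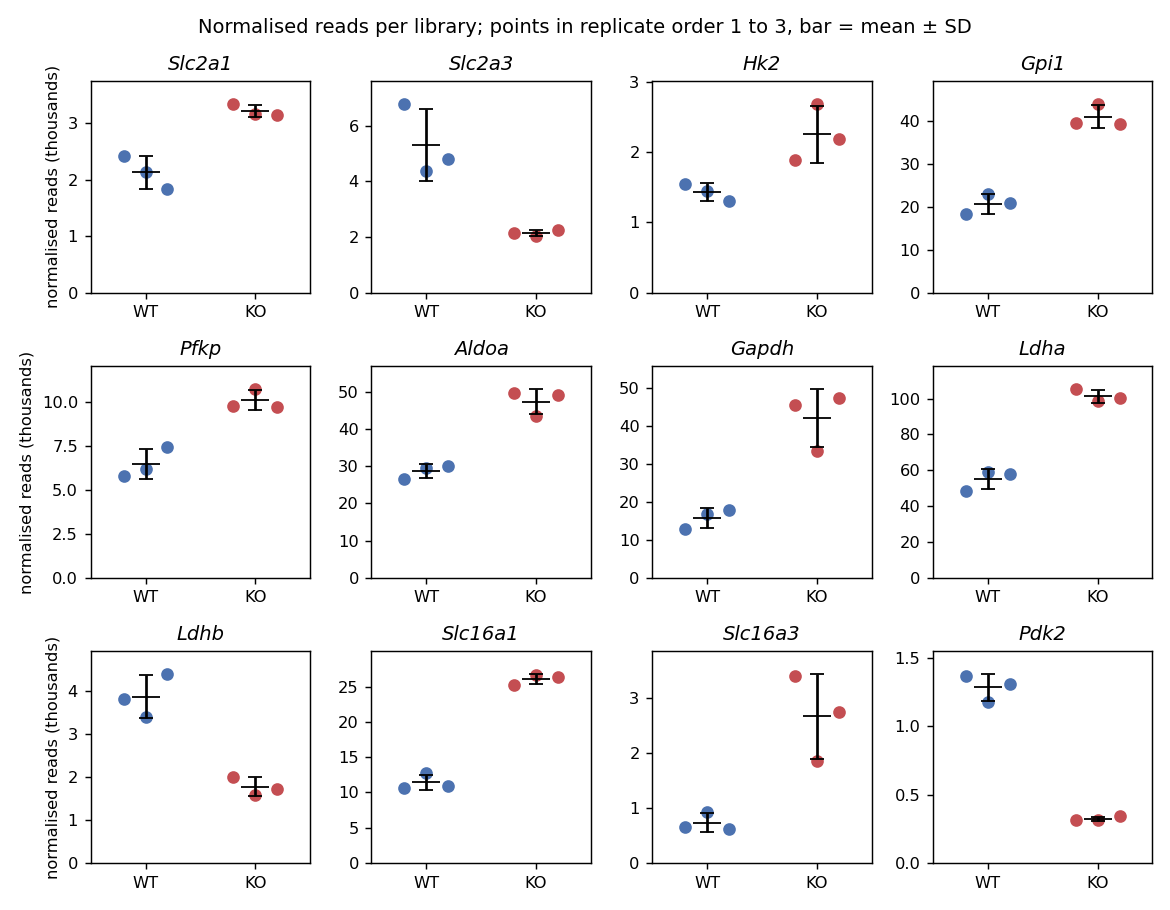
Normalised reads (divided by 1000) in each library for 12 of the genes, chosen after values had been seen, with WT in blue, KO in red and bars for the mean ± SD of 3 libraries. Axes start at 0, the groups do not overlap in any panel, and Slc2a3, Ldhb and Pdk2 are lower in KO while the other 9 genes are higher.

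The lactate dehydrogenase subunits moved apart. Ldha (chr7:46841475-46855627) encodes the subunit that favours pyruvate as substrate, and had 48683, 58931 and 57886 normalised reads in WT and 105430, 98382 and 100420 in KO. The groups did not overlap, and the log2 fold change was 0.88 ± 0.09 (adjusted p = 0.00130). Ldhb (chr6:142490249-142507957) encodes the subunit that favours lactate as substrate, and had 3824, 3397 and 4397 normalised reads in WT replicates 1 to 3 and 2011, 1589.5 and 1716 in KO replicates 1 to 3. KO stood at 45.8% of WT, with a log2 fold change of -1.13 ± 0.13 (adjusted p = 0.00177). Ldhb made up 9.61%, 7.24% and 9.33% of lactate dehydrogenase mRNA per kilobase in the WT libraries and 2.52%, 2.14% and 2.26% in the KO libraries. By all exons its mean share was 12.9% in WT and 3.55% in KO. The summed level of both subunits per kilobase was 172% of WT.

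Both monocarboxylate carriers were higher in KO, and with Gapdh they had the 3 largest rises among the 32 genes. Slc16a1 (chr3:104638668-104658462) encodes MCT1, which carries lactate in either direction, and had 10687, 12693 and 10850 normalised reads in the WT libraries and 25262, 26621 and 26323 in the KO libraries. The KO libraries lay close together and far above WT, with a log2 fold change of 1.20 ± 0.09 (adjusted p = 0.000435). Slc16a3 (chr11:120948480-120960868) encodes MCT4, the carrier of strongly glycolytic cells for lactate export, and had 652, 932 and 610.3 normalised reads in WT and 3395, 1861 and 2746 in KO. KO stood at 365% of WT, with KO replicate 2 the lowest of its group, and the log2 fold change was 1.85 ± 0.25 (adjusted p = 0.00256). Per kilobase Slc16a1 remained the main carrier, at 93.9% of the sum in WT and 90.5% in KO, and the sum was 237% of WT.

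Sequence upstream of these genes is shown for the lactate genes and for Pdk2 described below, because their mRNA changed in both directions, a choice made after values had been seen. The stretches are the 250 bases before the gene start in RefSeq (GRCm38.p6), 5′ to 3′ on the strand of the gene, with capitals marking ACGTG or GCGTG on either strand, the core letters of hypoxia response elements. On the other strand they read CACGT and CACGC. The palindrome CACGTG, the E-box bound by MYC and related factors, holds ACGTG on both strands, so the motifs overlap. Ldha is at chr7:46845554-46845803 (+ strand), 4329 bases from the start of the gene as annotated in GENCODE M21, Ldhb at chr6:142507958-142508207 (- strand), Slc16a1 at chr3:104638414-104638663 (+), Slc16a3 at chr11:120948817-120949066 (+) and Pdk2 at chr11:95041372-95041621 (-).
Ldha: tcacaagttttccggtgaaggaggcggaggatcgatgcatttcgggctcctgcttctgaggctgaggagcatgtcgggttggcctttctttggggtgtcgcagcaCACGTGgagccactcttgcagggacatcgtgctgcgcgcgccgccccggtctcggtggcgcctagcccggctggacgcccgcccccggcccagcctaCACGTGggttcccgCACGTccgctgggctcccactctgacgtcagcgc
Ldhb: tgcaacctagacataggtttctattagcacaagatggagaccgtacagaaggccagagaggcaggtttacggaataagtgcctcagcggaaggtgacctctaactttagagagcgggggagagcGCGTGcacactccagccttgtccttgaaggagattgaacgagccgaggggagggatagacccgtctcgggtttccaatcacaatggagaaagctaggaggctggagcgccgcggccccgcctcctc
Slc16a1: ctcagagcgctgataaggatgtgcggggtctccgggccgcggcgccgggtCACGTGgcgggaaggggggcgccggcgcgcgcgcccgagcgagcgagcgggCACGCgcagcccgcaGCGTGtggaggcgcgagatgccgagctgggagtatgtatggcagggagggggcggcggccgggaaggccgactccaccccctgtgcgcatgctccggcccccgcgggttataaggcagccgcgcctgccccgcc
Slc16a3: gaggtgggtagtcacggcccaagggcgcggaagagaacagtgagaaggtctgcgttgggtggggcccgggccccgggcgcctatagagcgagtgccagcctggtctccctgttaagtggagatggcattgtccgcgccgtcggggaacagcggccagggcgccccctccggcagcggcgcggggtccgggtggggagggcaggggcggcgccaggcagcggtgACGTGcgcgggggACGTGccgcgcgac
Pdk2: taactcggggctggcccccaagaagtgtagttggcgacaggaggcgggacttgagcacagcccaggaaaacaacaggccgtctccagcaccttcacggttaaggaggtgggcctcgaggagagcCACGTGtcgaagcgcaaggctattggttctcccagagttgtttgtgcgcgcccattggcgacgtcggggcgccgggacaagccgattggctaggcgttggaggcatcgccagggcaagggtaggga

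The Ldha stretch held 3 separate blocks of these letters, of which 2 were CACGTG, starting 145, 48 and 34 bases before the RefSeq start. Slc16a1 held 3 blocks, Slc16a3 held 2 and Ldhb and Pdk2 held 1 each, and the block of Pdk2 was CACGTG. Of the 31 genes with a RefSeq stretch, 25 held ACGTG or GCGTG (80.6%), against 38.6% of 32851 promoters of the same length and 52.6% of those of genes tested. The members were counted with 1 stretch per gene, while the other shares count every stretch of a gene. Both motifs contain CG, and GC content, 36.4% to 76.4% in the stretches of the members, was not matched. Whether the shares differ beyond that was not tested. The letters were present in 13 of 17 genes that were higher, 3 of 3 that were lower and 9 of 11 that did not pass. CACGTG was present in 3 of 17, 2 of 3 and 0 of 11, against 6.02% of all promoters and 7.83% of those of genes tested. For a gene with several stretches, only the one nearest its annotated start was used. For Pfkm, among the lower genes with CACGTG, that was 1 of 4 stretches, with a GC content of 36.4%. The stretches of Aldoa and Hif1a lay 8458 and 6492 bases from the annotated start. Slc2a3 has no entry among the sequences. A match of letters is a description and not a bound site.

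Pyruvate dehydrogenase kinases switch off the pyruvate dehydrogenase complex, and of the 3 listed only Pdk2 passed. Pdk2 (chr11:95026258-95041354) had 1369.7, 1178 and 1308 normalised reads in WT replicates 1 to 3 and 313, 314 and 341 in KO replicates 1 to 3. KO stood at 25.1% of WT, the lowest ratio among those of the 32 genes that passed, with a log2 fold change of -1.99 ± 0.14 (adjusted p = 0.000428). Pdk1, the hypoxia-induced kinase, had 8805, 9245 and 8947 normalised reads in the WT libraries and 11053, 9632 and 10404 in the KO libraries. All KO values of Pdk1 lay above WT, but it did not pass (log2 fold change 0.20, adjusted p = 0.118), except with library quality weights (0.0424). Pdk3 had 5764, 6824 and 7031 normalised reads in WT and 5891, 6738 and 6334 in KO, overlapped and did not pass (log2 fold change -0.05, adjusted p = 0.797). Pdk2 made up 10.6% of the summed level of the 3 kinases per kilobase in WT and 2.80% in KO, and that sum was 95.0% of WT with overlapping groups.

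The subunits of the first enzyme of the complex differed little. Pdha1, the alpha subunit with the site the kinases phosphorylate, rose from 11949, 13036 and 12562 normalised reads in the WT libraries to 15581, 14585 and 15312 in the KO libraries, a log2 fold change of 0.28 ± 0.07 (adjusted p = 0.0327). The call was lost without WT replicate 1, 2 or 3 (adjusted p = 0.0808, 0.0595 and 0.0725), without KO replicate 1 or 3 (0.0823 and 0.126), with no intensity trend (0.147), with total reads scaling (0.214) and under quantile normalization (0.527). Pdhb, the beta subunit, had 13109, 13343 and 13825 normalised reads in WT replicates 1 to 3 and 17436, 13330 and 15869 in KO replicates 1 to 3, overlapped and did not pass (log2 fold change 0.20, adjusted p = 0.218), though it did without KO replicate 2 (0.0428).

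Mpc1 and Mpc2 together form the carrier that takes pyruvate into mitochondria. Mpc1 had 4403, 4022 and 4041 normalised reads in the WT libraries and 7612, 4818 and 6736 in the KO libraries, with no overlap and a log2 fold change of 0.60 ± 0.16 (adjusted p = 0.0342). KO replicate 2 stood close to WT. The call was lost without WT replicate 1, 2 or 3 (adjusted p = 0.0685, 0.0907 and 0.0869), without KO replicate 1 or 3 (0.0779 and 0.115), with no intensity trend (0.114), with total reads scaling (0.0899) and under quantile normalization (0.0665). Mpc2 had 2908, 2377 and 2646 normalised reads in WT and 3320.2, 2870.5 and 3273 in KO, overlapped and did not pass (log2 fold change 0.26, adjusted p = 0.145), except with library quality weights (0.0266).

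Hif1a, whose protein is mainly controlled by oxygen-dependent breakdown and which activates many glycolytic genes, was also higher in KO as mRNA. It had 6803, 6344 and 5594 normalised reads in WT replicates 1 to 3 and 9266, 10443 and 9959.7 in KO replicates 1 to 3, with no overlap and a log2 fold change of 0.67 ± 0.10 (adjusted p = 0.00360).

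Ratios of isozymes within a library do not depend on how libraries are scaled, apart from the pseudocount of 1, and 13 pairs were compared. In 9 of them the 3 KO ratios lay wholly to one side of the 3 WT ratios, which gives an exact two-sided permutation p of 0.1, the smallest that 3 against 3 libraries can give, and 0.144 after Benjamini-Hochberg adjustment over the 13 pairs. None could therefore pass 0.05. Among all single genes tested 40.9% had groups that did not overlap, and the share among ratios of other gene pairs was not computed. Many of the paired genes also had no overlap singly, so the count of pairs is not a separate result. The log2 ratio of Slc2a3 to Slc2a1 was 1.30 ± 0.25 in WT and -0.58 ± 0.09 in KO (SD, n = 3). That of Ldhb to Ldha was -3.83 ± 0.24 in WT and -5.84 ± 0.12 in KO, and that of Pdk2 to Pdk1 was -2.81 ± 0.15 and -5.0 ± 0.12. These 3 pairs differed by -1.88, -2.01 and -2.19, and Aldoc to Aldoa and Eno2 to Eno1, both with a scarce isozyme, by -1.98 and -3.92. Hk2 to Hk1 differed by 0.93, Pfkp to Pfkl by 0.79, Pfkfb4 to Pfkfb3 by 0.77 and Pfkm to Pfkl by -0.52. The ratios of Hk3 to Hk1, Slc16a3 to Slc16a1, Pdk3 to Pdk1 and Mpc2 to Mpc1 overlapped between groups, with differences of 0.19, 0.65, -0.25 and -0.34.

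**Figure D4:**
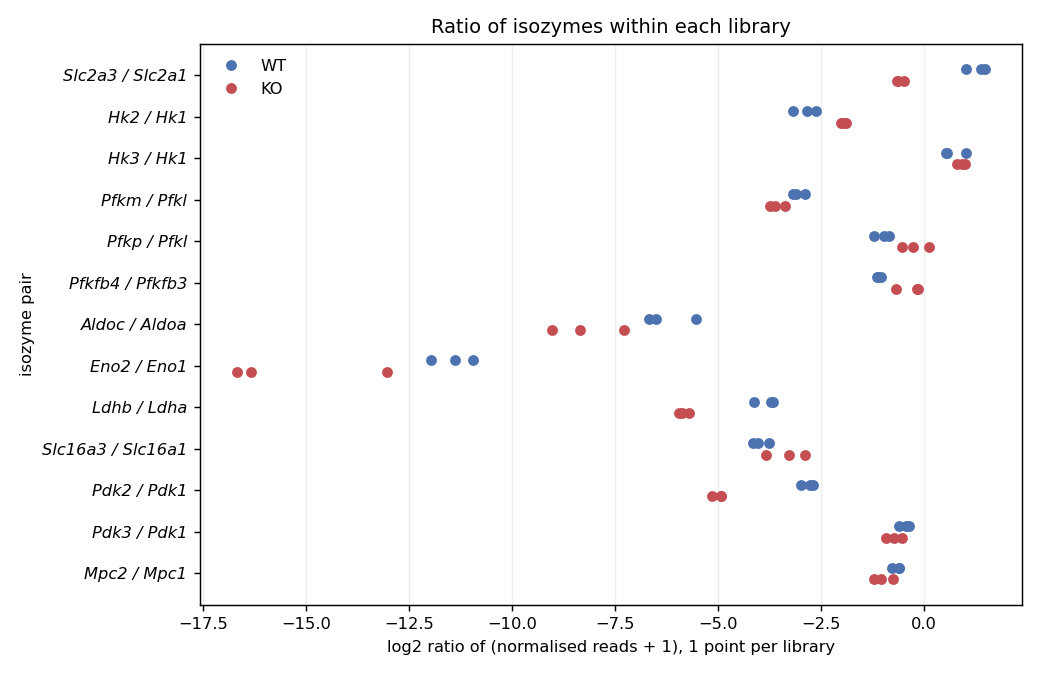
Log2 ratio of normalised reads + 1 for 13 isozyme pairs (vertical axis), with 1 point for each library, WT in blue and KO in red. The groups are separate in 9 pairs, with Slc2a3 to Slc2a1 above 0 in every WT library and below 0 in every KO library, and they overlap in Hk3 to Hk1, Slc16a3 to Slc16a1, Pdk3 to Pdk1 and Mpc2 to Mpc1.

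Other genes of the pathway were read from 7 further lists, which together held 80 tested genes of 100. Of these genes 16 were higher in KO and 17 lower, with a median log2 fold change of -0.03 against -0.02 over all genes. Thus 41.2% of them passed, 20% as higher and 21.2% as lower, against 23.3%, 10.3% and 13% of all genes. Egln3 stands in 2 of the lists and is counted once here. Among 7 other isozymes of glycolysis 2 passed, both lower in KO (28.6%, against 13% of all genes). They were the liver and red cell pyruvate kinase Pklr, at 163, 235 and 203 normalised reads in WT and 58.9, 41.3 and 28.5 in KO, a log2 fold change of -2.24 (adjusted p = 0.00484), and the D-lactate dehydrogenase Ldhd (log2 fold change -1.20, adjusted p = 0.0300). The Ldhd call was lost without WT replicate 2 or 3 (0.0605 and 0.0928), without KO replicate 2 or 3 (0.0685 and 0.0919), with no intensity trend (0.0579) and under quantile normalization (0.112). Adpgk and Pgam2 were next by p and did not pass (log2 fold changes 0.30 and 0.69), though Adpgk did without WT replicate 2 (adjusted p = 0.0430).

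Of 16 other sugar and monocarboxylate carriers 2 were higher and 4 lower (12.5% and 25%, against 10.3% and 13% of all genes). Slc16a6 rose by 0.76 on the log2 scale (adjusted p = 0.00254). Slc16a12 and Slc2a10, both scarce, were lower, with log2 fold changes of -3.93 and -2.10 (adjusted p = 0.00726 and 0.0125). Also past the threshold, and named after values were seen, were Slc2a6 (log2 fold change 0.63) and Slc16a11 (-1.71).

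Of 14 genes of side branches and regulators 4 were higher and 3 lower (28.6% and 21.4%, against 10.3% and 13% of all genes). Tigar, a phosphatase that lowers fructose 2,6-bisphosphate, had 504, 733 and 589 normalised reads in the WT libraries and 1739, 1440.2 and 1755 in the KO libraries, a log2 fold change of 1.44 (adjusted p = 0.00168). Txnip, whose protein restrains glucose uptake, had 7867, 10596 and 7448 normalised reads in WT and 2194, 3579.8 and 2859 in KO, a log2 fold change of -1.60 (adjusted p = 0.00205). Neither gene overlapped between groups. Gpd1l, of the glycerol 3-phosphate branch, and Pgp, a phosphatase for side products of glycolysis, rose by 0.81 and 0.85 (adjusted p = 0.00138 and 0.00328). Named likewise after values were seen, the others that passed were Gpd2 (log2 fold change 0.54), Pfkfb2 (-0.67) and Arrdc4 (-1.18). Bpgm, the bisphosphoglycerate mutase of red cells, did not pass (log2 fold change -0.42, adjusted p = 0.0812) except without KO replicate 1 and under 2 other settings, with adjusted p down to 0.0123.

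Of 13 genes of gluconeogenesis and glycogen 4 were higher and 2 lower (30.8% and 15.4%, against 10.3% and 13% of all genes). The glycogen primer Gyg and the synthase Gys1 rose by 0.70 and 0.88 (adjusted p = 0.00471 and 0.00626). Pygm, the muscle glycogen phosphorylase, had 634, 443 and 621 normalised reads in WT replicates 1 to 3 and 16.1, 61.9 and 33.7 in KO replicates 1 to 3, a log2 fold change of -4.07 (adjusted p = 0.00160). Ugp2 and Pck2, also named after values were seen, passed as well, with log2 fold changes of 0.46 and -0.56.

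Of 8 other genes around pyruvate dehydrogenase 3 passed, all higher in KO (37.5%, against 10.3% of all genes). Dlat and Dld, which encode the acetyltransferase and dihydrolipoyl dehydrogenase of the complex, rose by 0.73 and 0.69 (adjusted p = 0.00221 and 0.00261), and Lias, which makes the lipoyl group that the product of Dlat carries, rose by 0.52 (adjusted p = 0.0166). Lias lost its call without WT replicate 1 (0.0527) or KO replicate 3 (0.0666), with no intensity trend (0.0633) and with total reads scaling (0.0526). Pdpr did not pass (log2 fold change 0.34). Pdk4 was too scarce to be tested, with 15.2, 4.76 and 0 normalised reads in WT and 0 in every KO library.

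Genes around HIF were read from separate lists of oxygen sensing and of targets. Of 7 tested genes of oxygen sensing 1 passed (14.3%, against 23.3% of all genes). Egln3, a prolyl hydroxylase that marks HIF for breakdown and is itself a HIF target, rose by 0.54 (adjusted p = 0.0107), while Vhl, Egln2 and Hif1an did not pass (log2 fold changes -0.64, 0.29 and -0.24). Without WT replicate 3, Vhl and Egln2 did pass (adjusted p = 0.0451 and 0.0399). Epas1, which encodes HIF-2 alpha, was not tested, with 14.04, 8.56 and 0 normalised reads in WT and 0 in KO. Of 16 HIF targets outside glycolysis 3 were higher and 6 lower (56.2% called), with a median log2 fold change of -0.35. By direction these are 18.75% and 37.5%, against 10.3% and 13% of all genes. Vegfa, a growth factor for vessels, had 1024, 760.3 and 894 normalised reads in the WT libraries and 2022, 1929 and 2229.6 in the KO libraries, a log2 fold change of 1.21 (adjusted p = 0.00160), and the carbonic anhydrase Car12 rose by 1.15 (adjusted p = 0.00493). Ndrg1 and Pdgfb were lower, with log2 fold changes of -0.93 and -3.46 (adjusted p = 0.00408 and 0.00342). The other lower targets, named after values were seen, were Kdm3a (log2 fold change -0.78), Car9 (-0.60), Bnip3 (-0.36) and the scarce P4ha2 (-3.64). With no intensity trend 2 targets were lower, and 3 were lower without WT replicate 2 or WT replicate 3.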

How the data were processed

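Per the labels' protocols, RNA was isolated with Trizol reagent, and a VAHTS v2 kit served for the poly(A) libraries. The submitters' processing notes list HISAT2 and StringTie, with the builds mm10 and mm8, and give no version or role. The counting method, strand included, is not stated. Each file gives 1 deposited signal value per gene, called expression per the file headers. Divided by a step of 0.863 to 1.17 that is fixed within a library, 100% of values came out whole to within 0.01, so they are read counts divided by a size factor. Of the gene identifiers 49035 matched GENCODE M21 in version, start and end, so positions are GRCm38 (mm10).

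Groups follow the labels. The test was limma 3.58.1 in R 4.3.3 (lmFit and eBayes, trend on) of log2-transformed values with a pseudocount of 1, two-sided, with Benjamini-Hochberg adjustment over 20136 genes and a threshold of 0.05. A fold change on this scale understates the change of low genes. Recovered whole reads were also tested with edgeR 4.0.16 (quasi-likelihood), which called 2075 genes higher and 2496 lower, and DESeq2 1.42.0, which called 2400 and 2950, against 2069 and 2622 by limma. Members, gene lists and alternatives were chosen with earlier results of these data known. Every member is described. Of the other lists the 4 tested genes with the smallest p in each were named, and Bpgm, Txnip, Pdk4, Tigar, Epas1 and Vegfa whatever their p, except for genes that are not reported here. Levels per kilobase use the longest principal transcript of GENCODE M21, taken for Pfkm, Pfkfb4, Aldoa, Tpi1 and Pgam1 from another version of the identifier. The length of all annotated exons was used first and replaced after values had been seen, because retained introns lengthen it, and sums over a step were also added then. Marker lists lack Azu1, which was not matched. All libraries differed by more than sampling noise (chi-square per degree of freedom 38.0 to 80.5 within groups). Same-numbered libraries did not deviate together. Floors of 3 reads cover counting error only. Tables were handled with pandas 2.3.3 in Python 3.11.15.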

Additional observations from a re-analysis of the deposited data

How the results depend on the processing

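The counts and named genes were recomputed under 20 alternatives. Of the 21 members called, 16 kept their call and direction in all 20, and Hk2, Pfkm, Pkm, Pdha1 and Mpc1 lost it in some, with the values given above. Of the 11 not called, 4 were never called and 7 were called in some. The members counted higher ranged from 14 to 20 and those lower from 3 to 6. Signs turned for members that never passed. On leaving out each library, the log2 fold change of Hk3 ranged from -0.2732 to 0.1106, the log2 fold change of Pfkl from -0.3439 to 0.053 and the log2 fold change of Pdk3 from -0.1341 to 0.0092. The values above 0 came without KO replicate 1 (Hk3, Pfkl, and Pdk3 at 0.0039) and without WT replicate 3 (Pdk3), and Pdk3 was also at 0.0016 with upper quartile scaling. Over all genes, 2069 were higher and 2622 lower. The higher count was 1071 without the intensity trend, 3198 with library quality weights and 1337 with total reads scaling. Leaving out each library gave 993 to 1787 higher and 1565 to 2604 lower. The 993 came without KO replicate 3, which left 1714 lower, and WT replicates 1, 2 and 3 left 1565, 1639 and 1602 lower. In the pathway lists 16 were higher and 17 lower. The lower count was 9 without the intensity trend and 10 to 14 on leaving out each library, with 10 without WT replicate 2 and 11 without KO replicate 3. The fits that leave out a library have fewer samples, and the causes of the other changes were not tested. The number of isozyme pairs without overlap was 9. Leaving out a library, which can only remove overlap, gave 9 to 12 and says nothing of stability. With all exons in place of the principal transcript, an alternative added after seeing the data, the carrier sum for glucose moved from 76.7% to 90.6% of WT, and the other 10 step sums moved by less than 1 SD of the KO libraries. Among them the phosphofructokinase sum went from 108% to 98.7% and the mitochondrial pyruvate carrier sum from 141% to 148%.

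The replicate numbers did not pair the libraries: deviations of same-numbered libraries correlated at -0.0234, -0.0107 and -0.0207. With the replicate number as a block, 16 members were higher and 4 lower, 1705 genes were higher and 2157 lower and 13 genes of the pathway lists were higher and 12 lower. Overlap of the isozyme ratios does not depend on the block. No library correlated best with its own number. Pdha1 and Ldhd lost their calls under the block (adjusted p = 0.0710 and 0.0584). Depth limits genes under 3 reads.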
